A study of Mus musculus with 8 samples.

Results

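The RNA of 10 genes was examined for binding by MBD5 and MBD6 in mouse embryonic stem (mES) cells: Bap1, Asxl1, Asxl2, Foxk1, Foxk2, Hcfc1, Ogt and Kdm1b, which encode BAP1 and proteins of its complex, and Mbd5 and Mbd6 themselves. These genes were taken from a list of 21951 annotated protein-coding genes by name, with earlier results of these data known. A peak was assigned to a gene when its midpoint lay in the gene body on the same strand, and 44 of the 29555 peaks of the series did so. Binding was measured by cross-linking and immunoprecipitation followed by sequencing (CLIP–seq), with 2 libraries from cells that stably overexpressed Flag-tagged MBD5 and 2 from cells that overexpressed Flag-tagged MBD6. The tagged proteins were encoded by the human coding sequences and were delivered by lentivirus into otherwise wild-type cells, which were kept under hygromycin B. All groups grew in serum with LIF, CHIR99021 and PD0325901, and feeder cells were removed by passaging on gelatin. The labels do not say whether a cell line was 1 clone, and they give a Flag antibody for the CLIP samples in one field and an MBD6 antibody in the extraction protocol. The study's methods give the Flag antibody. The 4 input samples were not used here.

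BAP1 is a nuclear deubiquitinase that removes ubiquitin from histone H2A and thereby opposes Polycomb repressive complex 1. An ASXL protein is needed for its activity, and the pair is the core of the Polycomb repressive deubiquitinase (PR-DUB). FOXK1 and FOXK2 are forkhead factors that bring the complex to DNA, HCFC1 is a scaffold of transcription complexes, OGT adds N-acetylglucosamine to nuclear proteins, KDM1B demethylates histone H3, and MBD5 and MBD6 join the complex and carry a methyl-CpG-binding domain. The comparison asks whether the RNAs that encode these partners held peaks of the proteins themselves, and where.

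Peaks numbered 5362 and 5388 for Flag-MBD5, from an estimated 478790 and 500143 reads, against 9218 and 9587 for Flag-MBD6, from 983918 and 1111742 reads, a depth 2.14 times as large. Libraries of the same protein differed by less than the sampling noise and were counted as 1 sample: the chi-square per degree of freedom was 0.532 at 685 sites for Flag-MBD5 and 0.872 at 276 sites for Flag-MBD6, where 1 is given by sampling alone. They were strong sites, chosen for 60 or more reads with the opposite protein, whereas peaks in the 10 genes held 6 to 51, and noise at such weaker sites was not measured. Values of both libraries are therefore given without an error, and no test between the proteins was made, although the study's methods speak of biological replicates. Of 12 stem cell markers 10 had a peak in at least 1 library, and of 8 markers of feeder fibroblasts 0 had one. Among all protein-coding genes 19.4% did, and whether feeder RNA remained was not tested.

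Peaks lay in 7 of the 10 genes. Bap1, Asxl1, Asxl2, Hcfc1, Ogt, Mbd5 and Mbd6 had a peak in at least 1 library, whereas Foxk1, Foxk2 and Kdm1b had none, and no gene had a peak on the opposite strand. Among all protein-coding genes 19.4% had a peak in at least 1 library, and among the 6578 genes with a main transcript as long as those of the 10 genes (3460 to 8543 nt) 28.5% did. With Flag-MBD5, 4 and 4 of the 10 genes had a peak in the respective libraries, where 10.1% and 9.90% of all coding genes did. With Flag-MBD6, 6 and 7 had one, where 16.2% and 16.5% of all coding genes did. With either library of a protein taken, the count was 5 for Flag-MBD5 (11.9% of all coding genes, 17.4% of those of like length) and 7 for Flag-MBD6 (18.6% and 27.5%). The 10 genes thus stood above the background in each library. The background was not matched on expression, which was not measured here, and its part in this difference was not tested.

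**Figure D1:**
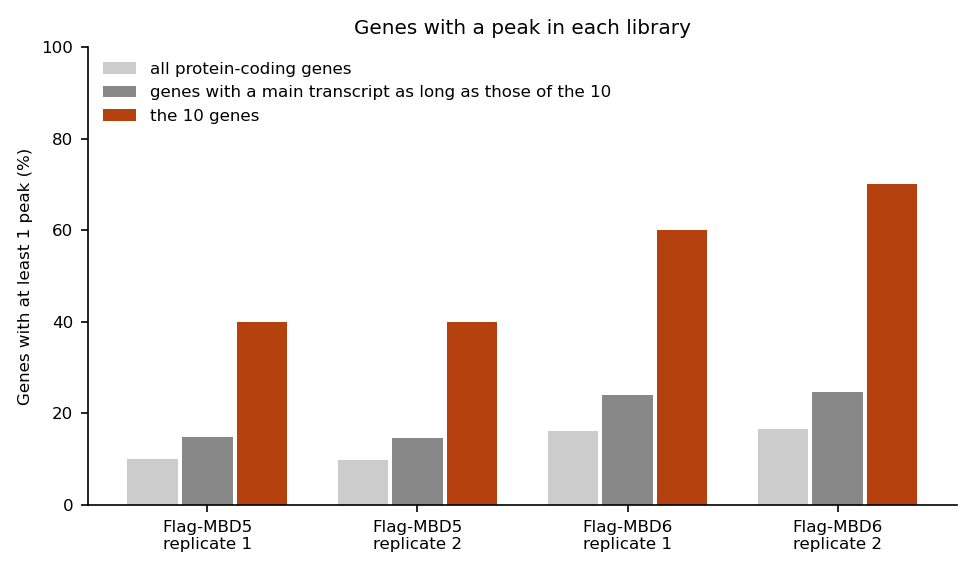
Share of genes with at least 1 peak (%, vertical axis) in each of the 4 libraries, for all protein-coding genes (light grey), for genes with a main transcript of 3460 to 8543 nt (dark grey) and for the 10 genes (orange). The 10 genes, of which 4, 4, 6 and 7 had a peak, stand above both backgrounds in every library.

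A region found in both libraries of a protein is the stricter call. For Flag-MBD6, 14 such regions lay in 5 of the genes, Bap1, Asxl1, Asxl2, Hcfc1 and Ogt, where 13.8% of all coding genes and 20.7% of those of like length held one. For Flag-MBD5, 2 such regions lay in 2 genes, Bap1 and Mbd5, where 7.80% and 11.6% held one. Merged over the libraries, the 44 peaks formed 21 sites, of which 1 was found in 4 libraries, 5 in 3, 10 in 2 and 5 in 1. Of these sites 11 lay in Asxl1 and Asxl2. When the same number of top peaks was taken from each library, 3 genes in place of 5 held a Flag-MBD6 region.

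Bap1, the catalytic subunit, held the only site of the 10 genes that was found in all 4 libraries. Such a site was held by 7.35% of all coding genes and by 10.9% of those of like length, so 1 of 10 genes is near the background. The Bap1 site lay at chr14:31256724-31256892 (mm10, plus strand) and began in exon 12 of 17, at codon 399 of 728 (exons and codons are those 15 nt inside the 5′ end). For sites whose start differed between libraries, the codon is that of the peak with the smallest p value, unless a library is named. The 5′ end of the peak was the same nucleotide in all 4 libraries. The sequence is shown because this site alone was found in all 4 libraries, although other sites also held peaks of both proteins. It starts with the base before the 5′ end, in capitals, and goes on with the first 29 nt of the peak, read from the GENCODE transcript with T for U.
Bap1 site 1: Gtactctgaagacgaggatgactacgagga
The summit held 17 and 9 reads with Flag-MBD5 and 14 and 23 with Flag-MBD6. The fold enrichment, which is the signal at the summit over the local background, was 13.9 and 7.62 with Flag-MBD5, against 7.56 and 14.2 with Flag-MBD6. The ranges of the proteins overlapped. With the reads summed to 26 and 37 and scaled for depth, the log2 ratio of Flag-MBD6 to Flag-MBD5 was −0.59, with an exact (Clopper–Pearson) 95% counting interval from −1.35 to 0.19 that held 0. The median of this ratio over the 3566 sites found in all 4 libraries was −0.34. The ratio was −0.03 without the first Flag-MBD5 library and −1.01 without the second. The mean fold enrichment of the site, 10.8, lay at percentile 21.03 of those sites, so Bap1 was among the weaker of the sites that all libraries held.

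Asxl1, which encodes an activating subunit of BAP1, held 5 sites, each found in both Flag-MBD6 libraries. Each Flag-MBD5 library held only 1 of them, and not the same one. The site with the most reads lay at chr2:153346307-153346486 (plus strand). It began in the 5′ UTR, in exon 1 of 13, and its peaks ran past the start codon. Its summit held 46 and 43 reads for Flag-MBD6, with fold enrichments of 17.9 and 14.8, and 24 reads in the first Flag-MBD5 library, with a fold enrichment of 12.7. No peak was called there in the second Flag-MBD5 library. This site is shown for its start, which holds 5 CpG dinucleotides within 30 nt.
Asxl1 site 1: Gccgccaccgccgccgcggaggaggaggat
Transcripts of 2 other genes, Cdk19 and Atp2a2, matched this repetitive window with 2 and 3 mismatches, within the 3 that the alignment allowed. By the study's settings a read was placed only where its mismatches were fewest. Whether reads placed here came from those genes was not tested.

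The other Asxl1 sites lay in coding sequence, in exons 2, 11 and 12. The exon 2 site, chr2:153352231-153352396, began at codons 39 and 44 of 1514 with 16 and 13 reads in the Flag-MBD6 libraries. The exon 11 site, chr2:153396766-153396944, began at codon 343 with 17 and 31 reads for Flag-MBD6 and 11 in the second Flag-MBD5 library. The 2 sites of exon 12, chr2:153397386-153397715 and chr2:153397819-153398040, were called for Flag-MBD6 alone. They began at codons 371 and 515 in the first Flag-MBD6 library and at 389 and 535 in the second. They held 21 and 29 reads and 31 and 22 reads. The last exon, of 4769 nt and by far the longest of the transcript, held no peak in any library.

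Asxl2, the paralogue of Asxl1, held 6 sites. Both Flag-MBD6 libraries held 5 of them, the first Flag-MBD5 library held 3, and the second held 0. The site with the most summit reads lay in exon 11 of 12 at chr12:3496237-3496577 (plus strand), and its peak began at codon 354 of 1370 in the first Flag-MBD6 library and at codon 345 in the second. Its summit held 37 and 34 reads for Flag-MBD6, with fold enrichments of 19.2 and 10.98, against 7 reads and 6.16 in the first Flag-MBD5 library, and the peak of Flag-MBD5 began 157 nt downstream of the first of the Flag-MBD6 peaks. A second site of exon 11, chr12:3496668-3496885, began at codon 489 with 18 and 24 reads for Flag-MBD6 alone. The site of exon 7, chr12:3474537-3474693, began at codon 193 and held 22 and 28 reads for Flag-MBD6 and 13 for the first Flag-MBD5 library. The site of the last exon, chr12:3501576-3501738, began at codon 1111 and held 13 and 24 reads for Flag-MBD6 and 6 for the first Flag-MBD5 library. These are low counts, and the 6 reads are close to the fewest of any called peak in that library, which was 5. All Flag-MBD5 peaks in Asxl2 thus rest on 1 library, and without it Flag-MBD5 had no peak in the gene.

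An Asxl2 site at chr12:3477093-3477320 lay in an intron of every annotated transcript. It held 22 and 27 reads in the Flag-MBD6 libraries, with fold enrichments of 14.3 and 16.6, and began at the same nucleotide in both. It was the only site of the 21 that began in an intron with no annotated exon on that strand.

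Asxl1 and Asxl2 held Flag-MBD6 peaks in some corresponding exons but not in others. The last exon held 0 sites in Asxl1 and 1 in Asxl2. Exon 7 of Asxl2 held 1 site, and exon 8 of Asxl1, at the same place from the 3′ end, held 0. The Asxl1 sites of exons 1 and 2 had no counterpart in those exons of Asxl2. Counted from the 3′ end of the transcript, the third exon of both genes is 106 nt long, with 77.4% of bases identical, and held 1 site in each. In the 1-based numbering of this exon, the position 15 nt inside the peak was nucleotide 61 or 50 in Asxl1 and nucleotide 44 in Asxl2. The exon before the last is 625 nt in Asxl1 and 712 nt in Asxl2, with 62.5% identity over 592 aligned nt, and held 2 sites in each. The starts did not coincide within a library. In Asxl2 numbering, the upstream sites began at nucleotide 26 (Asxl1) and 54 (Asxl2) in the first Flag-MBD6 library and at 100 and 28 in the second. The downstream sites began at 534 and 493 in the first and at 602 and 459 in the second. Sequences of the paired sites, each from the peak with the smaller p value, are given because the genes are paralogues, and the windows differ enough that none matched the other gene within 3 mismatches. The Asxl2 site of the 106-nt exon, chr12:3493762-3493919, was called only in the second Flag-MBD6 library, with 20 reads.
Asxl1 site 3, 106-nt exon: Gacaggaaatggaaaaggagaagaaggtgg
Asxl2 site 3, 106-nt exon: Gaattcgacaagagattgagaaggagaaga
Asxl1 site 4, exon before the last: Gaccaaagaagaatcactgcagcagaaaga
Asxl2 site 4, exon before the last: Gcttcctcaagtgatcccaaagcaaagaaa
Asxl1 site 5, exon before the last: Gacactgtggatcaagagacaaaggatcag
Asxl2 site 5, exon before the last: Gctgggttacaaaaacccataataaagcct
The capital is again the base before the 5′ end, and it was G in all 6 of these windows. A made up between 41.4% and 51.7% of the bases after it.

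**Figure D2:**
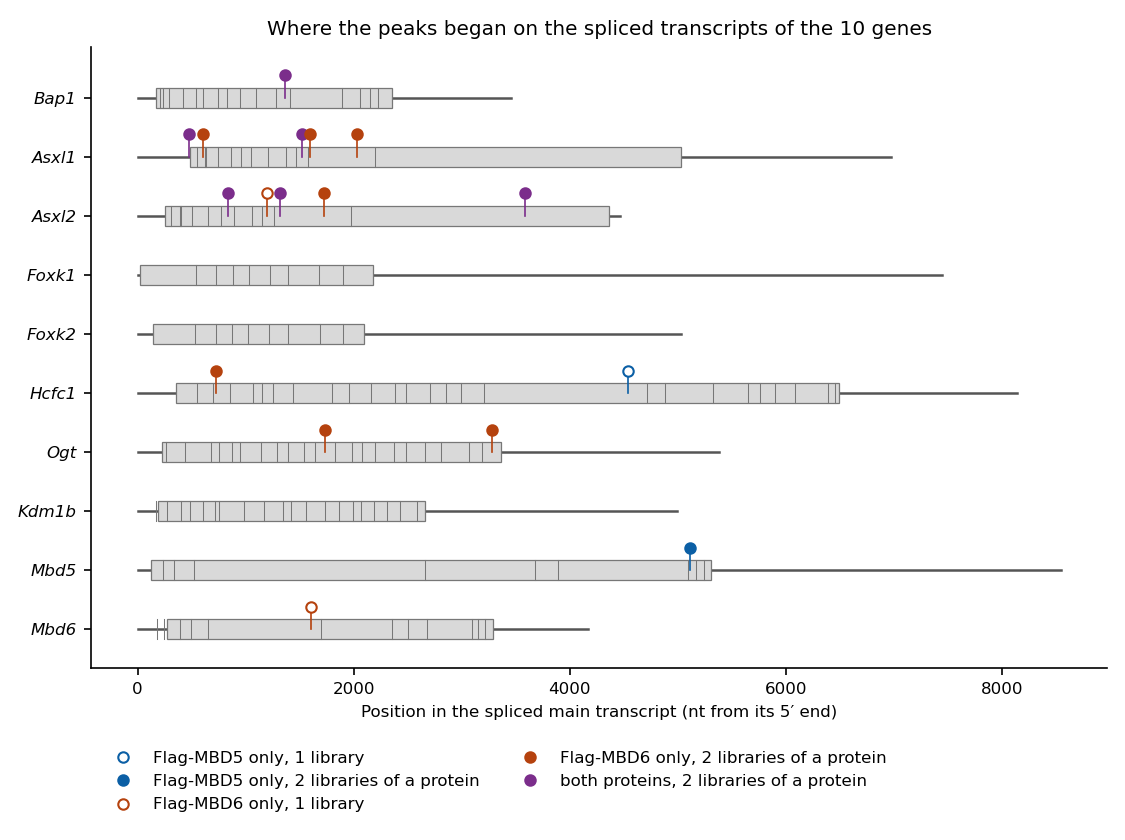
Spliced main transcripts of the 10 genes (horizontal axis, nt from the 5′ end), with coding sequence as grey boxes, exon junctions as thin lines, and sites as pins at the position 15 nt inside the 5′ end, coloured by the proteins with a peak and filled where both libraries of a protein held one. The 5 Asxl1 sites lie between 478 and 2033 nt of a transcript of 6968 nt, Foxk1, Foxk2 and Kdm1b carry none, and 4 sites outside these main transcripts (1 in Asxl2, 3 in Mbd5) are not drawn.

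Hcfc1 and Ogt, which encode a scaffold and the glycosyltransferase that acts on it, held sites for Flag-MBD6 that were not called in either Flag-MBD5 library. Their mean Flag-MBD6 reads were 13.5 for Hcfc1 and 15.5 and 29.5 for Ogt. Over the series, a Flag-MBD5 peak was called at 29.9% of sites with 10 to 15 such reads, 47.3% with 15 to 20 and 69.1% with 20 to 30. A preference for MBD6 at these sites was not tested. In Hcfc1 (minus strand, 26 exons) the site in exon 3, chrX:73959121-73959270, began at codon 124 of 2045 with 12 and 15 reads and began at the same nucleotide in both libraries. A single peak of 12 reads in the second Flag-MBD5 library lay in exon 17, the long exon of 1504 nt, at chrX:73949217-73949392. In Ogt (plus strand, 22 exons) the site of exon 12, chrX:101668055-101668204, began at codon 505 of 1046 with 14 and 17 reads. The site of the last exon, chrX:101682228-101682450, began close to the stop codon, at codon 1031 in the first Flag-MBD6 library and 1018 in the second. Its midpoint lay in the 3′ UTR. It was the stronger of the pair, with 23 and 36 reads and fold enrichments of 11.4 and 17.2. The sequence of this site is given as the only one here that reached a 3′ UTR, and its capital is C.
Ogt site 2: Caatggaattagagcgactttatctgcaga

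Foxk1, Foxk2 and Kdm1b had 0 peaks in each of the 4 libraries. The weakest peaks called anywhere held 5 summit reads in each Flag-MBD5 library and 6 in each Flag-MBD6 library, so binding below such levels was not detectable at this depth. Their main transcripts, of 7439, 5029 and 4987 nt, were not shorter than that of Bap1, at 3460 nt the shortest of the 10. Their coding sequences were 2157, 1953 and 2478 nt long, against 2184 nt in Bap1. The other genes with a peak had coding sequences from 3015 nt (Mbd6) to 6135 nt (Hcfc1). Whether length plays a part in the lack of peaks was not tested.

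Mbd5 and Mbd6 each held a coding site that was called only with the protein of the same name. In Mbd5, the site at chr2:49298662-49298811 (plus strand) began in exon 8 of 10, at codon 1663 of 1728, with 9 and 9 reads in its libraries and fold enrichments of 7.70 and 7.62. No peak was called there in the Flag-MBD6 libraries, although they were deeper: the Flag-MBD5 reads scaled to their depth came to 19.3. Among all 3965 sites that both Flag-MBD5 libraries held, 3.88% lacked a Flag-MBD6 peak, and among the 192 sites with a mean of at most 9 reads 14.1% had none. In Mbd6 the single peak lay in the second Flag-MBD6 library at chr10:127285492-127285642 (minus strand), in exon 6 of 13, and began at codon 444 of 1005. It held 51 reads, the most of any peak in the 10 genes, but the lowest fold enrichment, 4.82, with a local background of 9.79 reads, 16.5 times the lowest rate on that strand. Both windows are shown because cells expressed the human coding sequence of the same protein.
Mbd5 site 2: Gcccgagaagttgaagactctcacagaagg
Mbd6 site 1: Gcacaccttcctcctcccccagccctctcc
The Mbd6 window was 65.5% C. Reads with up to 3 mismatches to the mouse genome were aligned, and whether reads at these sites came from RNA of the human transgene was not tested. These are the only coding sites of the genes, and each rests on few reads or on 1 library.

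The other Mbd5 sites did not lie in its main transcript. A peak of 15 reads in the second Flag-MBD6 library, at chr2:49118685-49118848, began in a 5′ UTR exon of another annotated transcript. A pair of sites lay inside an intron of Mbd5, in Gm13509, a processed pseudogene of 1308 nt at chr2:49308155-49309462 on the same strand. It matches the mRNA of Ap2m1, which encodes a subunit of the clathrin adaptor AP2, at 99.7% of bases, with 4 mismatches. At chr2:49308575-49308724 the second Flag-MBD6 library held 12 reads. At chr2:49309071-49309261 the first Flag-MBD5 library held 11 and the first Flag-MBD6 library held 12. The windows at both sites occur without a mismatch in Ap2m1, and 2 further annotated genes matched the first within 3 mismatches. The first window spans 2 exon junctions of the spliced Ap2m1 mRNA, where an alignment without splicing cannot place a read on the Ap2m1 gene, whereas the second spans 0 and could also be placed there. Ap2m1 held 0 peaks in all 4 libraries. Reads from the pseudogene and from Ap2m1 cannot be told apart here. Without these peaks, 5 in place of 6 of the 10 genes had a peak in the first Flag-MBD6 library, and the counts in the other libraries stayed at 4, 4 and 7.
Mbd5 site 4, in Gm13509: Gtcatcaagtccaacttcaagccctcactt

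**Figure D3:**
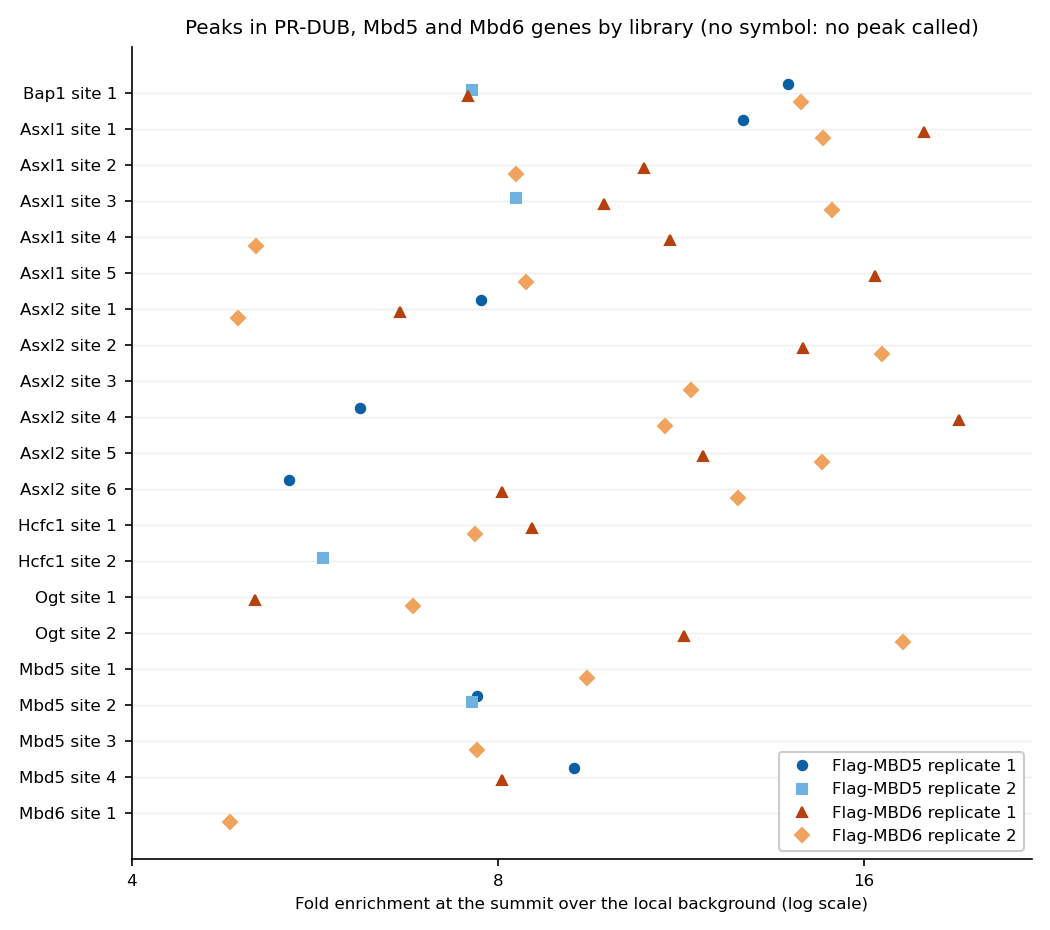
Fold enrichment at the summit over the local background (horizontal axis, log scale) at each of the 21 sites, with a symbol for each library that had a peak there. Only Bap1 site 1 carries all 4 symbols, and values run from 4.82 at Mbd6 site 1 to 19.2 at Asxl2 site 4.

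Peaks in these genes were of moderate strength. The median fold enrichment of their Flag-MBD5 peaks was 7.70, with a range from 5.39 to 13.9, against 10.4 for all Flag-MBD5 peaks. That of their Flag-MBD6 peaks was 10.5, from 4.82 to 19.2, against 11.02 for all. The Flag-MBD5 peaks held a median of 11 summit reads and the Flag-MBD6 peaks a median of 22.

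Sites of Flag-MBD6 were called again in Flag-MBD5 in a minority of cases. Of the 14 sites in both Flag-MBD6 libraries, 6 had a peak in a Flag-MBD5 library, which is 42.9% (95% Wilson interval 21.4% to 67.4%). Over the whole series this share was 66.7% of 7477 sites, and 64.4% of the 5359 sites with a mean of 13.5 to 44.5 reads, the range of the sites in these genes. The interval held both values. A peak in both Flag-MBD5 libraries was called at 1 of the 14 sites, which is 7.14% (95% interval 1.27% to 31.5%). Over the whole series 47.7% of the 7477 sites had one in both, and 40.9% of the 5359 sites, both above that interval. The intervals cover counting error only, and sites of the same gene are not independent. The first Flag-MBD5 library held 5 of the 14 and the second 2, whereas among the 5359 sites the libraries held 52.2% and 53.1%, so a single library decides most of the sharing. By mean reads, 0 of 2 sites with 10 to 15 reads had a Flag-MBD5 peak (29.9% over the series), 2 of 3 with 15 to 20 (47.3%), 2 of 7 with 20 to 30 (69.1%) and 2 of 2 with 30 to 45 (88.0%), so these few sites lay on either side of the series. Scaled to the depth of a Flag-MBD5 library, the Flag-MBD6 reads at the 14 sites came to 6.31 to 20.8, near the fewest reads of a called peak at the lower end. Depth and protein cannot be told apart in this comparison.

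**Figure D4:**
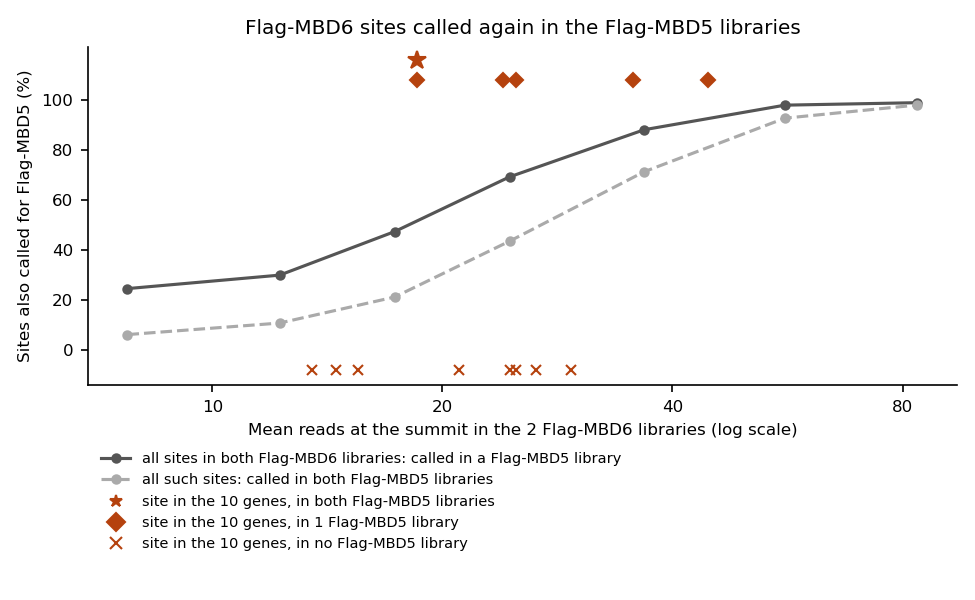
Share of Flag-MBD6 sites that were also called for Flag-MBD5 (%, vertical axis) by their mean summit reads in the Flag-MBD6 libraries (horizontal axis, log scale), over the whole series (lines), with the 14 sites in the 10 genes as orange symbols above the plot (called in 1 or both Flag-MBD5 libraries) or below it (called in neither). The 8 crosses lie between 13.5 and 29.5 reads, where the share over the series rises with the reads.

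Most sites began in coding sequence, as in other genes. At 15 nt inside the 5′ end, 35 of the 44 peaks lay in coding sequence, which is 79.5% (95% Wilson interval 65.5% to 88.8%). Of the 21 sites 16 did (76.2%), against 88.6% of 10598 sites in other protein-coding genes. The interval is for peaks, of which several belong to the same site, so it does not measure the error of the share of sites. Of the remainder 2 sites lay in 5′ UTRs, 2 in the pseudogene and 1 in an intron, and 0 began in a 3′ UTR. The 5′ UTR share was 9.52%, against 1.49% in other genes, where 2.20% began in a 3′ UTR. The 5′ UTR of the Mbd5 site belongs to a transcript other than the main one. Without the pseudogene peaks the share was 85.4%, and by the midpoint of the peak it was 40.9%, since reads had been extended to 150 bp along the genome. For 6 of the 16 coding sites (37.5%), in Bap1, Asxl1, Asxl2 and Mbd5, the midpoint fell in the intron that follows. Their 5′ ends lay 40 to 77 nt before the end of the exon. In other genes the midpoint fell in an intron for 31.4% of 9384 coding sites.

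The exons that held the 16 coding sites had a median length of 402.5 nt, against 173 nt for 9384 sites of other genes. Exons over 500 nt held 8 of the 16, in Asxl1, Asxl2, Hcfc1, Ogt and Mbd6, against 20.3% in other genes. The first 29 nt of these sites held 36.6% A, 24.1% C, 21.6% G and 17.7% T, against 37.8%, 21.1%, 25.7% and 15.4% in other genes. A CpG occurred in the 30-nt window of 5 of the 16 sites, against 58.3% of 9069 windows in other genes. A G stood before the 5′ end at 14 of the 16 sites and C at the other 2, and at 75.0% of sites in other genes. RNase T1, which trimmed the RNA, cuts after G. Of the 20 windows of all kinds that could be read, 17 had no match in another gene within 3 mismatches. These are descriptions of few sites, of which several share a gene.

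Other genes around the complex and of the protein family were looked up whatever their values. A list of 13 further genes of the pathway held other H2A deubiquitinases, H2A ligases, relatives of the subunits, and also Yy1, Mgea5 and Ube2o. Of these 13 genes 9 had a peak in at least 1 library, where 19.4% of all coding genes did. A site found in all 4 libraries was held by 4, where 7.35% did (10.9% of those as long as the 10 genes). Brca1, an H2A ubiquitin ligase, had the strongest, with best fold enrichments of 35.1 and 38.7 with Flag-MBD5 and of 47.3 and 47.2 with Flag-MBD6, above every value in the 10 genes. Kdm1a, the homologue of Kdm1b, had 15.1 and 11.1 against 14.9 and 18.7. Mgea5, which encodes the enzyme that reverses the modification made by OGT, had 6.83 and 8.45 against 37.3 and 27.9, and Ube2o, whose product ubiquitinates BAP1, had 10.7 and 9.15 against 24.6 and 15.7. Of 9 further genes of proteins with a methyl-CpG-binding domain, 6 had a peak, and 3 held a site found in all 4 libraries. Baz2a, which encodes a subunit of a nucleolar remodelling complex, had 24.7 and 24.0 with Flag-MBD5 against 34.2 and 34.4 with Flag-MBD6. Its relative Baz2b had 10.4 and 17.4 against 32.8 and 32.7, and Setdb1, a histone H3 methyltransferase, had 20.7 and 20.6 against 18.2 and 28.4.

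Likeness to the Bap1 site over the 4 libraries was measured by the Euclidean distance of log2 fold enrichments, among 1610 genes with a site in all libraries. The nearest was Taldo1, which encodes the pentose phosphate enzyme transaldolase, at a distance of 0.23. Taldo1 had fold enrichments of 12.8 and 7.54 with Flag-MBD5 against 8.69 and 14.2 with Flag-MBD6.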

How the data were processed

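CLIP peaks of Flag-MBD5 and Flag-MBD6 in mES cells were analysed (4 libraries). According to the study's methods and the submitters' processing notes, the authors clipped, filtered and collapsed reads, dropped those from ribosomal RNA, mapped the remainder, with no splicing, to mm10 with Bowtie (1.0.0, up to 3 mismatches), split strands with SAMtools (1.16.1) and called peaks per library and strand with MACS2 (2), with reads extended to 150 bp, a genome size of 130000000 bp and q below 0.01. The deposited score restates the −log10 q as a whole number. Another deposited column gives the fold enrichment, a ratio of summit signal to local background, and the −log10 p and −log10 q that the authors deposited are those of MACS2. The deposited summit is an offset from the peak start.

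Summit reads and background rates were solved under a Poisson law from each peak's fold enrichment and −log10 p, which was possible for 100% of peaks (tolerance 0.005 in −log10 p). On simulated data, 100% of 1996 peaks were recovered. The lowest rate per strand, times genome size over extension, gave the read total. These are estimates after duplicate handling, and intervals (95%) cover counting error only. Peaks overlapping by 1 bp on the same strand were merged into sites. Genes, exons and sequences came from GENCODE M21 (same build), with the position 15 nt inside the 5′ end giving the class. All 10 genes were named, as was every site seen in both replicates of a protein. Of the genes most like Bap1 in pattern, only the nearest is given, and the others are not reported here. The members, gene lists and thresholds were chosen with earlier results of these data known. Python (3.11.15), numpy (2.4.6), scipy (1.17.1), matplotlib (3.10.9) and BLAST (2.17.0) were used. Alternatives covered the q threshold, fold minimum, position rule, strand, overlap, scaling, equal peak numbers, left-out libraries and left-out pseudogene peaks.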

Additional observations from a re-analysis of the deposited data

How the results depend on the processing

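Of 71 values recomputed under an alternative other than a left-out library, 68 were kept: counts within 1.5 times, and shares and the Bap1 ratio within their 95% counting interval. Some of these could not move. The settings of q below 0.001, fold enrichment of at least 4 and either strand removed or added no peak in the 10 genes. Their lowest −log10 q was 3.84, their lowest fold enrichment was 4.82, and the opposite strand held 0 peaks. Values kept under those settings say nothing on stability. The 3 values that were not kept were these. With the same number of top peaks from each library, 3 genes held a Flag-MBD6 region in place of 5, as that setting takes fewer Flag-MBD6 peaks. The share of peaks in coding sequence was 89.7% when the 5′ end had to lie in an exon of the gene, which leaves out intronic and pseudogene peaks, and 40.9% by the midpoint. The Bap1 log2 ratio, whose interval held 0, was 0.02 from fold enrichments and −0.25 with the median of all sites set to 0. Leaving out the pseudogene peaks, an alternative chosen after seeing the data, kept every count within 1.5 times. Sites fell from 21 to 19, and mean peaks per library from 5.5 to 5 for Flag-MBD5 and from 16.5 to 15.5 for Flag-MBD6.

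All 36 values without 1 library were kept by the same rule. Some of these could not move either: counts of genes, peaks and regions for a protein do not depend on the libraries of the other. Values kept in that way say nothing on stability. Genes with a peak ranged from 4 to 5 for Flag-MBD5 and from 6 to 7 for Flag-MBD6, mean peaks per library from 4 to 7 and from 15 to 18, sites from 17 to 21, the coding share from 77.5% to 81.1%, the share with G before the 5′ end from 73.7% to 82.1%, and the Bap1 ratio from −1.01 to −0.03. Regions in both libraries could not be recomputed for a protein with 1 library left. No paired analysis was possible because the results come from no test and the replicate numbers of the libraries carry no shared batch. Sites under the fewest summit reads of a called peak, 5 for Flag-MBD5 and 6 for Flag-MBD6, are not detectable at this depth.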
